A study of Mus with 16 samples.

Results

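Midkine and pleiotrophin, the genes for the receptors that bind them and the gene for nucleolin were examined in the forebrain of mice lacking 1 or all intact copies of *Kdm5c*, an X-linked gene for a histone H3K4 demethylase. The set holds 7 of the 54219 genes in the count table, picked by Ensembl identifier. They are *Mdk* (ENSMUSG00000027239) and *Ptn* (ENSMUSG00000029838) for the ligands, *Ptprz1* (ENSMUSG00000068748), *Alk* (ENSMUSG00000055471), *Lrp1* (ENSMUSG00000040249) and *Sdc3* (ENSMUSG00000025743) for receptors, and *Ncl* (ENSMUSG00000026234) for a binding protein. *Mdk* entered the set because the study's list of differentially expressed genes (DEGs) held it as higher in *Kdm5c*-HET females and not in *Kdm5c*-KO males, so its values below describe that choice and carry no p-value. The other 6 genes came in through their known role and were tested.

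Dissected forebrain tissue, the cortices and hippocampi, was taken at postnatal day 6 (P6) and its poly(A) RNA sequenced, 1 library per animal. The 8 males were 4 wild-type (WT) animals and 4 *Kdm5c*-KO animals with no intact copy of the gene, and the 8 females were 4 WT animals and 4 *Kdm5c*-HET animals with 1 intact and 1 mutant copy. The mutant allele is a deletion of *Kdm5c* exons that was made with Cre recombinase, and all groups, controls included, share a mixed background of inbred strains and came from 3 litters. Fewer cells of a type and less RNA per cell cannot be told apart in such samples.

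Midkine and pleiotrophin are small, secreted growth factors that bind heparin, and together they make up a family of their own. Both are abundant in the developing brain, where they act on neurite outgrowth, cell migration and survival, and both attach to the sugar chains of proteoglycans at the cell surface. PTPRZ1, a transmembrane tyrosine phosphatase that carries chondroitin sulfate, is the receptor best known in glial and progenitor cells, and binding of pleiotrophin inactivates its phosphatase. ALK is a receptor tyrosine kinase, LRP1 a large endocytic receptor of the LDL receptor family, and syndecan-3 (from *Sdc3*) a heparan sulfate proteoglycan of neurons. Nucleolin (from *Ncl*) works mainly in ribosome production in the nucleolus and also binds both ligands at the cell surface.

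Total counts per animal ranged from 21513783 to 30063352, and all 7 genes passed the filter on low counts that left 17866 genes for testing. Levels below are CPM, the counts scaled to a common library size after TMM normalization. Reads were not scaled to transcript length, so levels are compared between animals and never between genes. *Emx1*, a listed marker of the forebrain, lay between 27.4 and 41.0 CPM, and *Rbfox3*, a marker of neurons, between 216 and 275 CPM. *Kdm5c* itself was not analysed here.

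A few animals stood apart from the rest of their group. *Ttr*, the transthyretin gene that marks the choroid plexus, ranged from 6 to 5849 counts, and 6 animals had more than 1000 counts, namely WT males 2D and 5D, WT females 1D and 3D and *Kdm5c*-HET females 8E and 9E. Only 2 of 6 listed choroid plexus markers, *Ttr* and *Aqp1*, could be paired with an identifier, and neither was at 0 in any animal. Their summed level ranged among males from 1.48 to 205 CPM (WT) and from 1.98 to 2.82 CPM (*Kdm5c*-KO), and among females from 4.00 to 195 CPM (WT) and from 3.30 to 86.6 CPM (*Kdm5c*-HET). The labels also carry a letter, D or E, of which they do not state the meaning, and the letter E stands on 1 WT and 2 *Kdm5c*-KO males and on 2 WT and 3 *Kdm5c*-HET females. A fit with the letter as a term called 23.6% of the tested genes between the letters, so values within each letter are given where they bear on a result.

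*Mdk*, the gene chosen by its values, had its lowest levels in the WT females. These had 10.4 (1D), 10.2 (3D), 10.7 (4E) and 10.5 (5E) CPM. *Kdm5c*-HET females had 15.2 (9D), 14.4 (6E), 13.2 (8E) and 13.4 (9E) CPM, so that each of them lay above every WT female. WT males had 12.7 (2D), 11.5 (5D), 13.8 (7D) and 15.2 (1E) CPM and also lay wholly above the WT females. *Kdm5c*-KO males had 12.4 (4D), 13.2 (6D), 15.6 (2E) and 17.7 (3E) CPM and overlapped with the WT males.

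**Figure D1:**
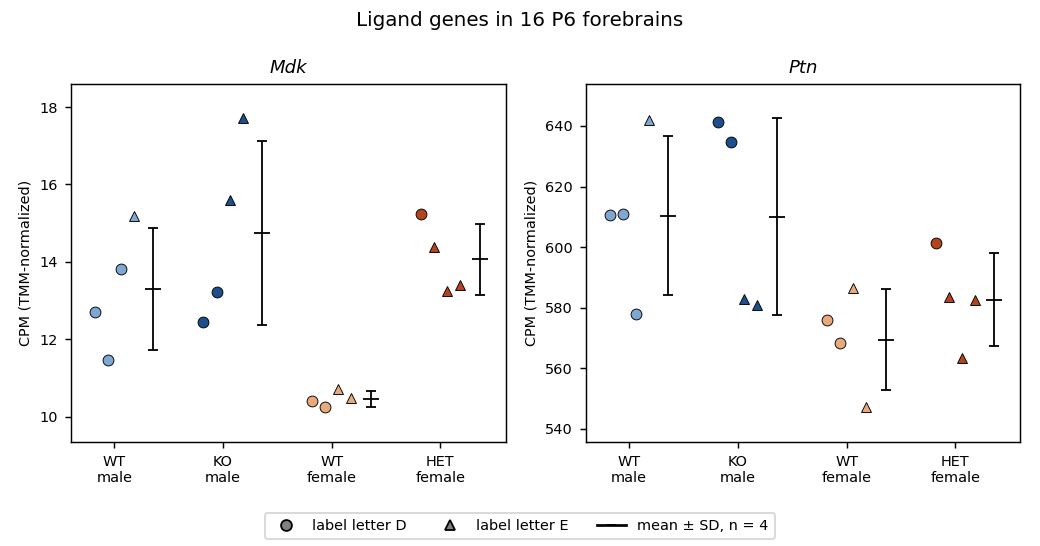
Normalized levels in CPM (vertical axes, not starting at 0) of the ligand genes *Mdk* and *Ptn* in each of the 16 animals, by group, with the group mean ± SD (n = 4) beside the points and the letter of the sample label as the marker shape. For *Mdk* the 4 WT females sit between 10.2 and 10.7 CPM, below all other animals, while for *Ptn* the groups overlap.

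The group means of *Mdk* were 13.3 ± 1.58 CPM (WT) and 14.7 ± 2.39 CPM (*Kdm5c*-KO) in males, and 10.5 ± 0.198 CPM (WT) and 14.1 ± 0.927 CPM (*Kdm5c*-HET) in females (SD, n = 4 each). These values rest on 239 to 502 counts per animal. In WT females the spread between animals was smaller than the counting error of a single library, which was 0.632 CPM at their mean depth, so that the 4 values lie closer together than counting alone would place them on average. The mean of the *Kdm5c*-HET females lay within the range of both male groups.

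Written as fitted Log2FC, *Mdk* was 0.43 (SE 0.105, 95% interval 0.21 to 0.65) higher in *Kdm5c*-HET than in WT females, which is 1.35-fold. In males the Log2FC of *Kdm5c*-KO over WT was 0.16 (SE 0.103, interval -0.06 to 0.37). *Mdk* was chosen by the study's calls in these same comparisons. The SEs and intervals of *Mdk* are not adjusted for that choice and serve as no test. The difference between both genotype effects, females minus males, was 0.27 (SE 0.147, interval -0.03 to 0.58). WT females were lower than WT males by a Log2FC of -0.34 (SE 0.105), whereas *Kdm5c*-HET females and *Kdm5c*-KO males differed by -0.07 (SE 0.103, interval -0.28 to 0.14). The comparisons share animals: the WT females enter both the first of these values and the comparison with WT males.

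Leaving out each animal in turn moved the female Log2FC of *Mdk* between 0.39 (without *Kdm5c*-HET 9D) and 0.45 (without *Kdm5c*-HET 8E). The male value moved further, between 0.05 (without *Kdm5c*-KO 3E) and 0.23 (without *Kdm5c*-KO 4D). Within the letter D the log2 ratio of mean CPM between *Kdm5c*-HET and WT females was 0.56, from 1 and 2 animals, and within the letter E it was 0.37, from 3 and 2 animals. In males the same ratio was 0.02 within D (2 and 3 animals) and 0.13 within E (2 and 1).

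The animals rich in *Ttr* had the lower *Mdk* levels of their groups. In WT males these were 12.7 and 11.5 CPM against 13.8 and 15.2 CPM, in WT females 10.4 and 10.2 against 10.7 and 10.5 CPM, and in *Kdm5c*-HET females 13.2 and 13.4 against 15.2 and 14.4 CPM. In WT females this gap was smaller than the counting error, and no *Kdm5c*-KO male was rich in *Ttr*. Without all 6 of these animals the female Log2FC of *Mdk* was 0.48 and the male Log2FC was 0.03. The difference of both genotype effects was then 0.45, and *Mdk* remained lower in WT females than in WT males, by a Log2FC of -0.45. The part of choroid plexus RNA in the *Mdk* levels was not tested beyond these values.

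*Ptn*, the gene of the other ligand, overlapped between the genotypes in both sexes. WT males had 611 (2D), 611 (5D), 578 (7D) and 642 (1E) CPM, and *Kdm5c*-KO males had 641 (4D), 635 (6D), 583 (2E) and 581 (3E) CPM. WT females had 576 (1D), 568 (3D), 586 (4E) and 547 (5E) CPM, and *Kdm5c*-HET females had 601 (9D), 583 (6E), 564 (8E) and 583 (9E) CPM. All groups overlapped, and the means were 610 ± 26.3, 610 ± 32.5, 569 ± 16.7 and 583 ± 15.4 CPM in that order (SD, n = 4).

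The Log2FC of *Ptn* was -0.00088 (SE 0.0428, 95% interval -0.09 to 0.09) in males and 0.03 (SE 0.0428, -0.06 to 0.12) in females. The p of edgeR's quasi-likelihood test, adjusted over all genes after Benjamini and Hochberg (q), was 0.995 and 0.981. The values rest on 12486 to 17735 counts per animal. Within the letters the male log2 ratio of mean CPM differed in sign, 0.09 in D (2 *Kdm5c*-KO and 3 WT animals) and -0.14 in E (2 and 1). The female ratio was 0.07 in D and 0.02 in E. In WT females *Ptn* was lower than in WT males by a Log2FC of -0.10 (SE 0.0428), which did not pass the threshold of q under 0.1 (edgeR q = 0.22).

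Among the receptors, the first question was whether any moved with the *Kdm5c* genotype as *Mdk* had been listed to. None of the 6 genes tested passed q under 0.1 by edgeR's quasi-likelihood test in *Kdm5c*-KO against WT males, where 5.24% of the 17866 genes did, nor in *Kdm5c*-HET against WT females, where 0.509% did. At an unadjusted p under 0.05, 1 of the 6 fell in the male comparison and 0 in the female comparison, against 16.5% and 6.49% of all genes. DESeq2 also called 0 of the 6 in both. Over all genes it gave the study's own DEG numbers, 708 higher and 371 lower in males and 122 and 14 in females. This 0 of 6 thus repeats the study's calls and is no independent support. The difference between the genotype effects was called for 0 of the 6, where 0.0392% of all genes passed. At an unadjusted p under 0.05 it was also 0 of the 6, where 6.37% of all genes fell. Their median Log2FC was 0.006 in males and 0.0004 in females, beside medians of -0.007 and -0.0008 over all genes, and the median size of the change was 0.05 and 0.01 beside 0.10 and 0.07.

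*Ptprz1* was the receptor gene nearest to a genotype difference. WT males had 794 (2D), 809 (5D), 825 (7D) and 854 (1E) CPM, and *Kdm5c*-KO males had 857 (4D), 863 (6D), 857 (2E) and 900.3 (3E) CPM. No *Kdm5c*-KO male fell below a WT male, which in this comparison was true, in either direction, of 8.91% of all genes, although the highest WT male and the lowest *Kdm5c*-KO male nearly touched. The means were 821 ± 25.4 and 869 ± 21.0 CPM (SD, n = 4), and the Log2FC of 0.08 (SE 0.0368, interval 0.006 to 0.16) did not pass the threshold (edgeR q = 0.263). Without WT males 2D and 5D, both rich in *Ttr*, the Log2FC was 0.05 (edgeR q = 0.808).

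In females the genotypes overlapped. WT females had 941 (1D), 934 (3D), 958 (4E) and 938 (5E) CPM, and *Kdm5c*-HET females had 980.2 (9D), 899.99 (6E), 916 (8E) and 913 (9E) CPM. One *Kdm5c*-HET female thus lay above all WT females and the other 3 below all of them. The means of 943 ± 10.7 and 927 ± 35.9 CPM (SD, n = 4) gave a Log2FC of -0.02 (SE 0.0367, interval -0.10 to 0.05, edgeR q = 0.991). The genotype effects of *Ptprz1* differed by -0.11 (SE 0.0520, females minus males), which was not called either (edgeR q = 0.777).

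The other receptors did not pass in either genotype comparison. *Lrp1* had a Log2FC of 0.01 (interval -0.07 to 0.10, edgeR q = 0.915) in males and -0.005 (-0.09 to 0.08, q = 0.999) in females. *Sdc3* had -0.04 (-0.12 to 0.04, edgeR q = 0.673) and -0.004 (-0.08 to 0.08, q = 0.999), and its means were 1128 ± 52.2 CPM (WT) and 1097 ± 35.5 CPM (*Kdm5c*-KO) in males and 1113 ± 24.0 CPM (WT) and 1110 ± 19.2 CPM (*Kdm5c*-HET) in females (SD, n = 4). The bound farthest from 0 among these 4 intervals was the -0.12 of *Sdc3* in males.

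*Alk* was measured less precisely, from 196 to 349 counts per animal. Its levels were 11.3 (2D), 12.02 (5D), 14.5 (7D) and 10.4 (1E) CPM in WT males and 11.4 (4D), 13.7 (6D), 8.32 (2E) and 10.2 (3E) CPM in *Kdm5c*-KO males. In WT females they were 10.9 (1D), 11.3 (3D), 8.17 (4E) and 11.3 (5E) CPM, and in *Kdm5c*-HET females 12.2 (9D), 11.5 (6E), 11.2 (8E) and 9.15 (9E) CPM. All groups overlapped, with means from 10.4 ± 1.5 CPM in WT females to 12.1 ± 1.75 CPM in WT males (SD, n = 4).

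The Log2FC of *Alk* was -0.14 (SE 0.141, interval -0.44 to 0.15, edgeR q = 0.679) in males and 0.08 (SE 0.142, -0.22 to 0.38, edgeR q = 0.992) in females. These were the widest intervals among the 6 genes tested. With 1 animal left out the male value ranged from -0.27 (without *Kdm5c*-KO 6D) to -0.035 (without *Kdm5c*-KO 2E). Without the 6 animals rich in *Ttr* the female value was 0.28 (edgeR q = 0.903). In the fit with the letter of the labels as a term, whose letter effect was read only after the values were seen, *Alk* was lower under E by a Log2FC of -0.28 (SE 0.0845, edgeR q = 0.0225). It was the 1 gene of 6 called by letter, and with 23.6% of all genes called that count says nothing particular about the set. Within the letters the male log2 ratio of mean CPM was -0.005 in D and -0.17 in E, and the female one was 0.14 and 0.13.

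*Ncl* ranged from 318 to 389 CPM over all 16 animals, with both ends of that range among WT animals. Its Log2FC was 0.05 (SE 0.0553, interval -0.07 to 0.17, edgeR q = 0.719) in males and 0.005 (SE 0.0553, -0.11 to 0.12, edgeR q = 0.999) in females. Group means were 351 ± 22.7 CPM (WT) and 363 ± 14.9 CPM (*Kdm5c*-KO) for males, and 349 ± 28.2 CPM (WT) and 350.1 ± 14.4 CPM (*Kdm5c*-HET) for females (SD, n = 4).

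**Figure D2:**
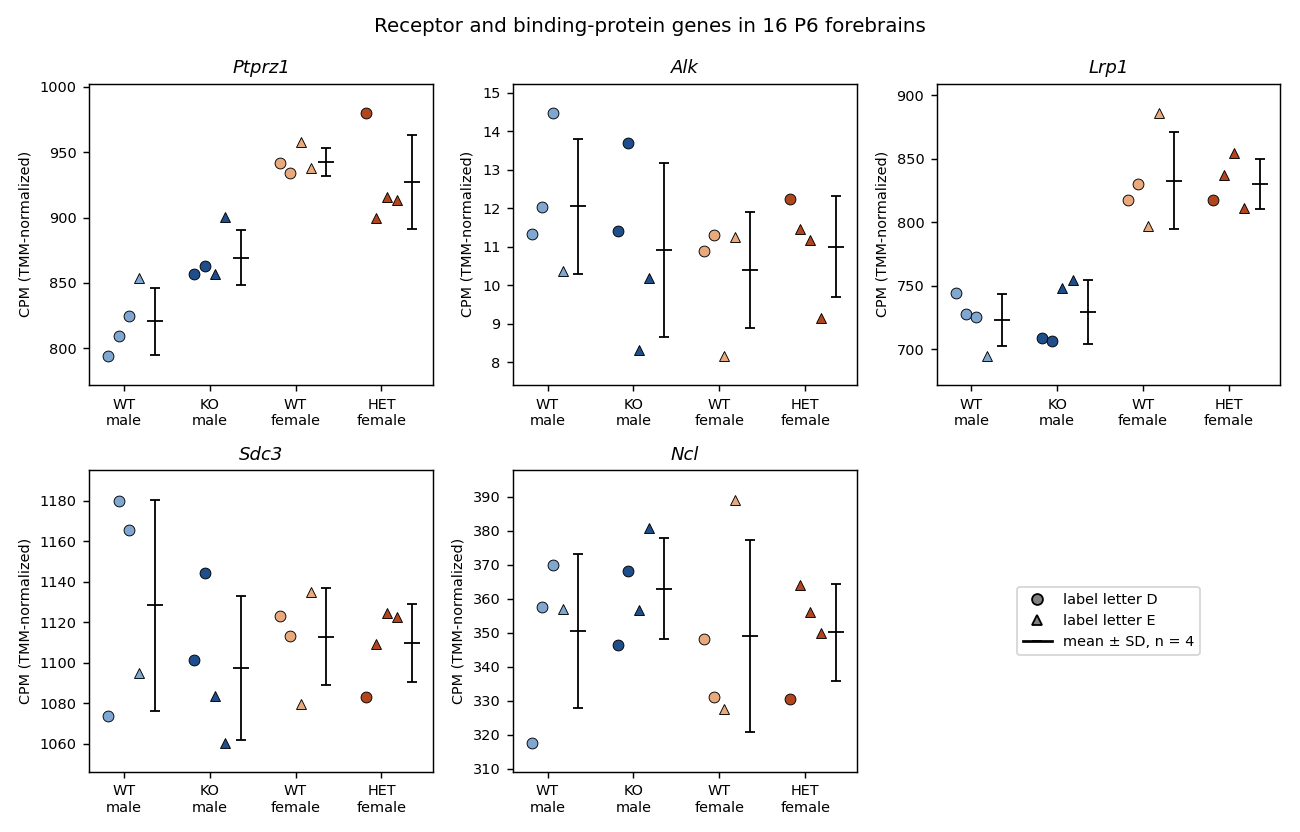
Normalized levels in CPM (vertical axes, not starting at 0) of the receptor genes *Ptprz1*, *Alk*, *Lrp1* and *Sdc3* and of *Ncl* in the 16 animals, by group, with the group mean ± SD (n = 4) and the letter of the sample label as the marker shape. All 8 females lie above all 8 males for *Lrp1*, from 797 to 886 CPM against 695 to 755 CPM, and the 4 WT females lie above the 4 WT males for *Ptprz1*.

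The larger differences within the receptor genes were between the sexes. In WT females against WT males, 2 of the 6 genes tested passed q under 0.1 by edgeR's test, *Ptprz1* and *Lrp1*, both higher in females, where 5.0% of all genes passed. The set is too small for this share to say more about the family. *Mdk*, by contrast, was lower in WT females, as given above.

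*Ptprz1* was 14.9% higher in WT females than in WT males, with a Log2FC of 0.20 (SE 0.0368, edgeR q = 0.0188), and no WT female overlapped with a WT male. The call held without each single animal (edgeR q from 0.0142 to 0.0782, Log2FC from 0.18 to 0.22). It was lost without WT males 2D and 5D (Log2FC 0.17, edgeR q = 0.23) and without all 6 animals rich in *Ttr* (Log2FC 0.17, edgeR q = 0.304), which leaves 2 WT males and 2 WT females. Within the letters the log2 ratio of mean CPM was 0.21 in D and 0.15 in E.

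*Lrp1* was higher in each female group than in each male group. WT males had 745 (2D), 728 (5D), 725 (7D) and 695 (1E) CPM, and *Kdm5c*-KO males had 709 (4D), 707 (6D), 748 (2E) and 755 (3E) CPM. WT females had 817 (1D), 830.4 (3D), 797 (4E) and 886 (5E) CPM, and *Kdm5c*-HET females had 817 (9D), 838 (6E), 854 (8E) and 811 (9E) CPM. Every female was thus above every male, which held in one or the other direction for 0.789% of all genes and for no other gene of the set.

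In WT animals *Lrp1* was 15.1% higher in females, with a Log2FC of 0.20 (SE 0.0398, edgeR q = 0.0243) between means of 833 ± 38.1 and 723 ± 20.7 CPM (SD, n = 4). The call held without each single animal (edgeR q from 0.0181 to 0.0980). Without WT males 2D and 5D the difference was larger, 0.23, but the q was 0.173, and without all 6 animals rich in *Ttr* it was 0.24 with q = 0.276, both by edgeR's test on fewer animals. Within the letters the log2 ratio of mean CPM was 0.17 in D and 0.28 in E.

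The same difference was then computed between the mutants, a comparison added after the values were seen. *Kdm5c*-HET females had 13.7% more *Lrp1* than *Kdm5c*-KO males, with means of 830 ± 19.9 and 730 ± 25.2 CPM (SD, n = 4) and a Log2FC of 0.19 (SE 0.0398, edgeR q = 0.0289). *Lrp1* was the only call among the 6 genes tested, where 1.57% of all genes passed. It was made in 13 of 16 fits that left out 1 animal and lost without *Kdm5c*-KO 4D (edgeR q = 0.109), *Kdm5c*-KO 6D (q = 0.102) or *Kdm5c*-HET 8E (q = 0.129), while the Log2FC stayed between 0.166 and 0.202 over the 16 fits. Without all 6 animals rich in *Ttr* the Log2FC was 0.18 (edgeR q = 0.422), and within the letters the log2 ratio of mean CPM was 0.21 in D and 0.15 in E. Sex and genotype differ together between these groups, so this comparison alone does not separate them. Within the sexes the genotype Log2FC of *Lrp1* was 0.01 (interval -0.07 to 0.10) in males and -0.005 (-0.09 to 0.08) in females.

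*Ptprz1* was less separated by sex among the mutants, with a Log2FC of 0.09 (SE 0.0367, interval 0.02 to 0.17, edgeR q = 0.264) for *Kdm5c*-HET females over *Kdm5c*-KO males. The highest *Kdm5c*-KO male, 3E, overlapped with the lowest *Kdm5c*-HET female, 6E. The test of whether the WT and mutant sex differences of *Ptprz1* differ is the same as that of the genotype effects given above, which did not pass.

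*Ptn* (-0.07, edgeR q = 0.541), *Alk* (0.01, q = 0.98), *Sdc3* (0.02, q = 0.912) and *Ncl* (-0.05, q = 0.743) did not pass in *Kdm5c*-HET females against *Kdm5c*-KO males. Between WT females and WT males *Alk* (Log2FC -0.21, SE 0.141, edgeR q = 0.457), *Sdc3* (-0.02, SE 0.0387, q = 0.834) and *Ncl* (-0.006, SE 0.0553, q = 0.97) did not pass either. Their intervals ran from -0.50 to 0.09 for *Alk*, from -0.10 to 0.06 for *Sdc3* and from -0.12 to 0.11 for *Ncl* in WT animals. None of the 7 genes lies on a sex chromosome.

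**Figure D3:**
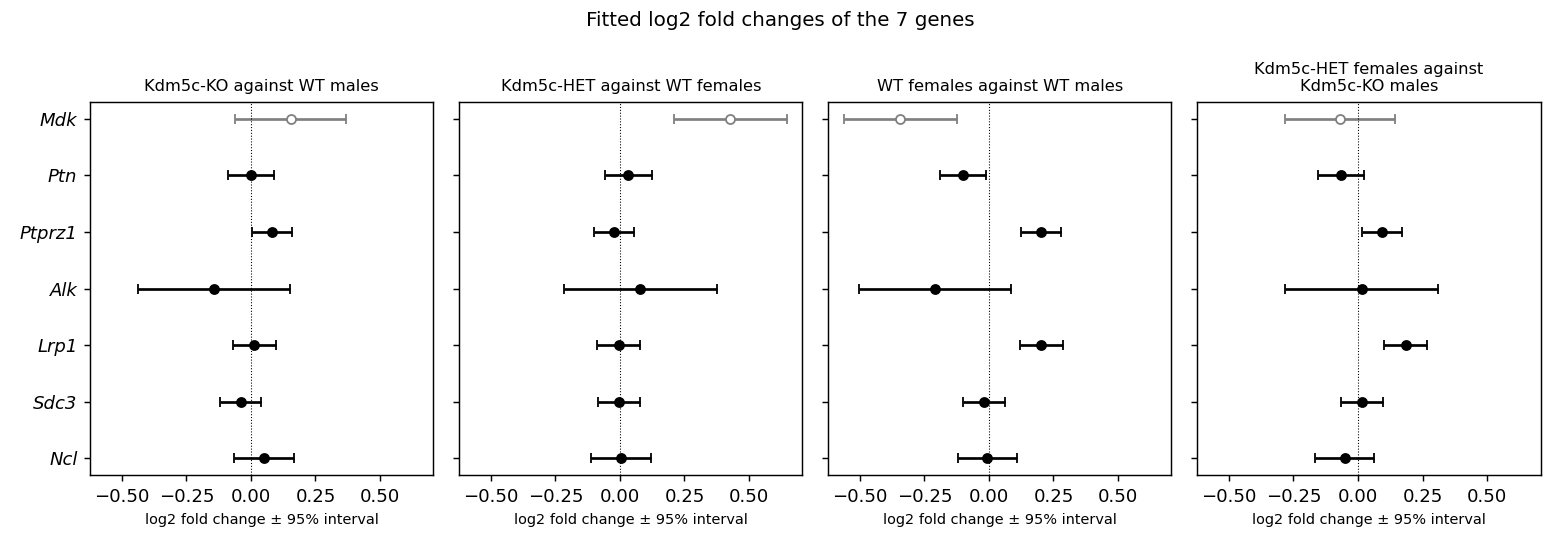
Fitted Log2FC with 95% intervals (horizontal axes) of the 7 genes in 4 comparisons, with *Mdk* drawn in open grey symbols because it was chosen by these values. The intervals of *Ptprz1* and *Lrp1* lie above 0 in WT females against WT males, at 0.20 for both, and the interval of *Alk* is the widest in every panel.

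Counted without any test, the groups did not overlap for 1 gene of the set in *Kdm5c*-KO against WT males (*Ptprz1*), where 8.91% of all genes did not, and for 1 in *Kdm5c*-HET against WT females (*Mdk*, by choice), where 4.47% did not. In WT females against WT males it was 2 of the 6 tested genes (*Ptprz1* and *Lrp1*, both higher) beside 10.6% of all genes, and *Mdk* also did not overlap there, with the same low WT females by which it was chosen. In *Kdm5c*-HET females against *Kdm5c*-KO males it was 1 of the 6 (*Lrp1*) beside 7.85%. *Ptn*, *Alk*, *Sdc3* and *Ncl* overlapped in each of these comparisons.

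**Figure D4:**
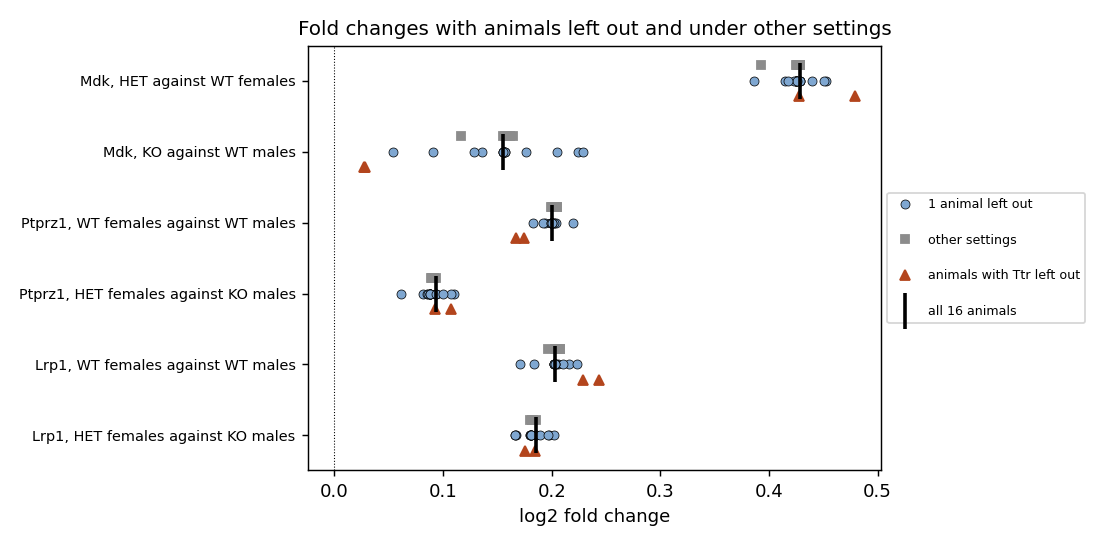
Log2FC (horizontal axis) of *Mdk*, *Ptprz1* and *Lrp1* in the comparisons named on the left, from all 16 animals (black line), with each animal left out in turn (blue points), under other settings (grey squares) and without animals rich in *Ttr* (red triangles). The female *Mdk* value stays between 0.39 and 0.48, and the male *Mdk* value spreads from 0.03 to 0.23.

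How the genes varied together inside the groups was described over the 16 animals after each group's mean was subtracted from log2 CPM. These correlations carry no test, and the points share library preparation and normalization. The letter of the labels was not subtracted, so differences between the letters enter these correlations and the nearest genes below. Of the 21 pairs within the set, 2 had a Pearson's r over 0.6 in size. *Ptn* and *Lrp1* ran in opposite directions (r = -0.81, Spearman's rho = -0.75, and r = -0.85 without the 2 animals farthest out), and *Mdk* and *Ptprz1* ran in the same direction (r = 0.67, rho = 0.60, and r = 0.62 without 2). In *Kdm5c*-KO males mean *Ptn* was 638 CPM under D and 582 CPM under E, and mean *Lrp1* 708 and 751 CPM. In WT males, with 1 animal under E, both steps were reversed (*Ptn* 600 and 642 CPM, *Lrp1* 733 and 695 CPM). The part of the letter in these correlations was not tested. The ligands themselves were weakly related (*Mdk* and *Ptn*, r = -0.29, rho = -0.24), and the sign turned without 2 animals (r = 0.085).

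Among the 650 genes with a symbol and a mean of at least 10 CPM, which are DEGs of the study and the members, the genes closest to *Mdk* were *Wnk1* (r = 0.78), *Pard3* (0.77), *Bcl6b* (0.77), *Otof* (0.75) and *Adgrg1* (0.74). Closest to *Ptn* were *Trnp1* (r = 0.79), *Smdt1* (0.72), *Praf2* (0.68), the astrocyte water channel gene *Aqp4* (0.67) and *Sox18* (0.66). Closest to *Ptprz1* were *Smoc1* (r = 0.78), *Lxn* (0.78), *Mdk* (0.67), *Srebf1* (0.66) and *Nwd1* (0.64). *Mdk* was thus the third of the genes nearest to *Ptprz1*, while *Ptprz1* was not among the nearest 5 of *Mdk*.

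Of 60 other genes of the pathway in 8 lists, only 3 could be paired with an identifier. These 3 were DEGs of the study on the same animals, so their direction, their q and the number called are no independent evidence. *Ltk*, the receptor tyrosine kinase most closely related to ALK, had 4.00, 3.72, 4.12 and 3.23 CPM in WT males and 8.31, 8.88, 6.95 and 6.81 CPM in *Kdm5c*-KO males, in the order of animals used above. In WT females it had 4.96, 4.66, 5.71 and 4.03 CPM and in *Kdm5c*-HET females 6.92, 5.91, 6.90 and 6.74 CPM. Neither sex overlapped between genotypes, as was true of 8.91% of all genes in males and 4.47% in females.

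*Ltk* rose 2.05-fold in *Kdm5c*-KO males (Log2FC 1.03, SE 0.128, edgeR q = 3.71e-05), the 1 call of 3 in a comparison where 5.24% of all genes were called. In *Kdm5c*-HET females its Log2FC was 0.45 (SE 0.126) and did not pass (edgeR q = 0.239), except with the letter as a term (edgeR q = 0.0709), and the genotype effects differed by -0.58 (SE 0.180, edgeR q = 0.631). *Ptprd*, for a receptor phosphatase of another subfamily than PTPRZ1, was higher in WT females than in WT males (Log2FC 0.17, SE 0.0376, edgeR q = 0.0348), a call that was lost without WT male 5D (Log2FC 0.165), without WT female 5E (0.157), without WT males 2D and 5D (0.206) and without all 6 animals rich in *Ttr* (0.243). It had a Log2FC of 0.11 in *Kdm5c*-KO males (edgeR q = 0.141) and 0.04 in *Kdm5c*-HET females (q = 0.976). *Tnr*, for the extracellular matrix protein tenascin-R that binds PTPRZ1, had a Log2FC of -0.16 in *Kdm5c*-KO males (edgeR q = 0.119) and -0.04 in *Kdm5c*-HET females (q = 0.979). In males both passed with the letter as a term (edgeR q = 0.0843 for *Ptprd* and 0.0534 for *Tnr*) and by DESeq2 (q = 0.0709 and 0.0923), and *Tnr* also with no filter (edgeR q = 0.0632). With 1 animal left out, *Ptprd* passed without WT male 2D (edgeR q = 0.0704) and *Tnr* without *Kdm5c*-KO 6D (q = 0.0833) and without WT female 4E (q = 0.0489).

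Of the 7 markers that could be paired, 5 passed in *Kdm5c*-KO against WT males, where 5.24% of all genes did, a count that follows from their choice among the study's DEGs. *Nes*, a filament gene of neural progenitors and the 1 of 6 progenitor markers that could be paired, rose in *Kdm5c*-KO males by a Log2FC of 0.37 (SE 0.113, edgeR q = 0.0824), and *Rbfox3*, the 1 of 6 neuron markers paired, fell by 0.19 (SE 0.0532, edgeR q = 0.0642), while *Aqp4*, the 1 of 6 astrocyte markers paired, had a Log2FC of -0.24 (SE 0.0774, edgeR q = 0.115) and did not pass. *Emx1* fell by 0.23 (SE 0.0719, edgeR q = 0.0948), and it was also lower in WT females than in WT males (Log2FC -0.24, edgeR q = 0.0823). The choroid plexus markers *Ttr* (Log2FC -5.76, SE 1.66, edgeR q = 0.0643) and *Aqp1* (-2.00, SE 0.574, q = 0.0642) fell as well, with WT males 2D and 5D holding the high values. None of the markers was at 0. *Nes* had 38.3 (4D) and 39.3 (6D) CPM in the *Kdm5c*-KO males of letter D, close to the 33.6 to 41.0 CPM of the WT males, and 53.6 (2E) and 57.4 (3E) CPM in those of letter E. In *Kdm5c*-HET females against WT females the values were 0.05 for *Nes* (edgeR q = 0.993), -0.09 for *Rbfox3* (q = 0.908) and -0.009 for *Aqp4* (q = 0.999). The 7 markers came from 52 listed and were all DEGs of the study, and their part in the levels of the ligand and receptor genes was not tested.

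In the mouse genome (mm10), RefSeq places *Mdk* at chr2:91929805-91932297, where it overlaps with the ends of *Chrm4* by 31 bases and of the non-coding *Gm39876* by 81 bases. *Ptn* is at chr6:36714924-36810179 and *Ptprz1* at chr6:22875315-23052916, 13662008 bases apart on the same chromosome. *Alk* is at chr17:71868988-72604702, *Lrp1* at chr10:127538157-127621148, *Sdc3* at chr4:130792537-130826318 and *Ncl* at chr1:86344719-86359455. *Ncl* holds the small RNA genes *Snora75*, *Gm24148* and *Snord82*, and *Ptprz1*, *Alk* and *Lrp1* each overlap with 2 non-coding genes or pseudogenes, so reads in these stretches may have been left out or assigned otherwise by the counting. *Ptn* and *Sdc3* overlap with no other gene.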

How the data were processed

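The authors prepared directional poly(A) libraries in a single batch and sequenced paired ends. They mapped reads to mm10 with STAR 2.5.3a, removed duplicates, kept unique reads and counted them per gene with featureCounts (Subread 1.5.0, strand setting not given in the sources used here). The deposited values are whole-number counts per Ensembl gene without normalization.

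In R 4.3.3, genes were kept by filterByExpr, normalized by TMM and fitted with edgeR 4.0.16 (glmQLFit and glmQLFTest) over all 16 animals with 1 mean per group. Genes with a Benjamini-Hochberg adjusted p (q) under 0.1 over all 17866 genes were called. SE is the Log2FC over the square root of the F statistic. CPM used no prior count, and the correlations a prior count of 2. Scripts were tested on simulated counts. Replicate libraries differed beyond sampling noise in all 24 within-group pairs (chi-square per gene 2.35 to 10.2), so each animal counted once. The sex labels were checked: 4 genes reached 100 counts in all males while no female exceeded 3, and 1 gene reached 100 in all females while no male exceeded 30.

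Members and lists were chosen with earlier results of these data known. Named are the 7 members, listed genes with an identifier that passed or else led their list by mean, and the 5 genes most correlated with *Mdk*, *Ptn* and *Ptprz1*. Symbols were paired with identifiers by the study's supplementary list of 1021 symbols, which confines listed genes to DEGs. For the members other than *Mdk*, the pairing came with the member list. Coordinates are those of RefSeq for GRCm38.p6, matched by symbol. The alternatives were DESeq2 1.42.0, its size factors, no filter, at least 10 counts in every animal, q under 0.05, the animals of 1 sex alone, the letter as a covariate, and each animal or the *Ttr*-rich animals left out. No sequence is shown.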

Additional observations from a re-analysis of the deposited data

Results flagged for a closer look

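In each group of 4 animals the highest and the lowest value of every member were compared with the rest by Dixon's ratio, the gap to the nearest animal over the range, against Dixon's 95% critical value. Of 28 combinations of gene and group, 2 passed, and chance alone passes about 1 in 20 groups. *Ptprz1* in *Kdm5c*-KO male 3E, at 900.3 CPM, stood above the other 3 of its group with a ratio of 0.862. Without this animal the Log2FC of *Ptprz1* in *Kdm5c*-KO against WT males was 0.066 (edgeR q = 0.488). *Alk* in WT female 4E, at 8.17 CPM, stood below the other 3 with a ratio of 0.873, and without it the Log2FC of *Alk* in *Kdm5c*-HET against WT females was -0.018 (edgeR q = 0.998).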

How the results depend on the processing

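A single-gene value of the 6 genes tested counted as kept if it held its direction and its side of the threshold. For *Mdk*, which was not tested, it had to hold its direction and shift by less than the within-group SD of log2 CPM. Values of *Mdk* that shifted further were marked as moved, a mark not used for the other 6 genes. Of the single-gene values, 273 were kept under settings other than leaving out 1 animal. Under these settings 5 lost their call, 15 changed sign and 1 was marked as moved. With 1 animal left out the numbers were 520 kept, 3 lost and 37 changed in sign. The lost calls were *Ptprz1* and *Lrp1* in WT females against WT males and *Lrp1* in *Kdm5c*-HET females against *Kdm5c*-KO males, given above. The value so marked was the difference of the genotype effects of *Mdk*, 0.45 without the 6 *Ttr*-rich animals. Other values also shifted by more than their SE and were not marked, among them the following. Without those 6 animals *Alk* was 0.28 in females (from 0.08, SE 0.142) and 0.47 for the difference of effects (from 0.22, SE 0.200). *Mdk* in males was then 0.03 (from 0.16, SE 0.103). Between the WT sexes *Mdk* was -0.47 without WT males 2D and 5D (from -0.34, SE 0.105). The cause of these changes was not tested, except that fewer animals enter such fits. Every value that changed sign was small and uncalled. *Ptn* in males was 0.0014 under DESeq2, 0.0016 with its size factors, 0.0073 with at least 10 counts, 0.0047 with no filter, 0.0038 with males alone, 0.0064 with the letter, 0.00041 without WT males 2D and 5D and 0.0016 without the 6 *Ttr*-rich animals. *Ncl* without WT males 2D and 5D was -0.0017 in males and 0.0060 for the difference of effects. Without all 6 it was -0.00075 in males and -0.049 in females, and *Sdc3* was -0.0081 between mutants. With the letter, *Ncl* was -0.012 and *Sdc3* 0.0028 in females.

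With 1 animal left out, the values whose sign changed ranged, in males, from -0.025 to 0.024 (*Ptn*) and from -0.0059 to 0.029 (*Lrp1*). In females they ranged from -0.025 to 0.023 (*Lrp1*), -0.018 to 0.0061 (*Sdc3*), -0.025 to 0.058 (*Ncl*) and -0.018 to 0.16 (*Alk*), and for the difference of effects from -0.038 to 0.0093 (*Lrp1*) and -0.077 to 0.0061 (*Ncl*). Between WT females and WT males they ranged from -0.063 to 0.023 (*Ncl*) and -0.045 to 0.0014 (*Sdc3*), and between mutants from -0.095 to 0.14 (*Alk*), -0.00034 to 0.032 (*Sdc3*) and -0.15 to 0.032 (*Mdk*).

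Counts of calls moved as follows. In WT females against WT males, 2 of 6 became 0 without WT males 2D and 5D and without all 6 *Ttr*-rich animals. Between mutants, 1 of 6 became 0 without those 6 and ranged from 0 to 1 over the animals left out. The listed pathway genes called in males went from 1 to 3 with DESeq2, 2 with no filter, 3 with the letter and 1 to 2 over the animals left out, in females from 0 to 1 with the letter, and between WT sexes from 1 to 2 with the letter, 0 to 1 over the animals left out and 0 in both fits without *Ttr*-rich animals. Over all genes, the numbers higher and lower ranged as follows over the settings and animals left out. WT females against WT males gave 463 and 431, from 5 and 5 without WT males 2D and 5D to 825 and 854 with the letter, and single animals mattered as well (46 and 27 without WT male 5D, 35 and 34 without WT female 5E). *Kdm5c*-KO against WT males gave 635 and 302, from 207 and 17 without the 6 *Ttr*-rich animals to 857 and 611 with the letter. *Kdm5c*-HET against WT females gave 86 and 5, from 33 and 0 without those 6 to 194 and 34 with no filter.

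*Mdk* and *Alk* had 502 counts per animal or fewer, so their errors exceed those of the other 5 genes. No paired analysis was possible because the numbers in the labels name single animals, counted through each letter across the groups, and mark no shared replicate. The fit with the letter as a term stands above.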
